A study of Homo sapiens with 4 samples.

Results

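Ligands and receptors of the tumor necrosis factor (TNF) superfamily, the TRAF adaptors that bind the receptors inside the cell, and the subunits and regulators of the transcription factor NF-kB were examined in THP1 cells after knockdown of the fusion gene MLL-AF9. Genes were taken by name, which gave 56 genes with a probe on the array, and 50 of them could be analysed, out of 17938 analysed genes with a symbol on the whole array. They were 11 ligands, 20 receptors, 7 TRAF adaptors and 12 NF-kB subunits, inhibitors and kinases. Of the 56 genes, TNFRSF9, TNFRSF17, TNFSF8, TNFSF11, TNFSF15 and TNFSF18 were left out because their spots had a deposited quality weight of 0 on every array, and these spots were well above background on 0 arrays.

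THP1 is a human monoblastic leukemia line (AML M5) whose cells carry MLL-AF9, and knockdown and control cells alike kept the fusion gene itself. Knockdown cells received siRNA-A or siRNA-B, both directed against the fusion point of the transcript. Control cells received a non-targeting siRNA, control siRNA-1 or control siRNA-2. The deposited titles number the knockdown siRNAs 3 and 4. They are taken here as siRNA-A and siRNA-B in that order, a match that the titles do not state. All cells were transfected on days 0, 3 and 6, were moved from 10% to 0.5% serum on day 6 and were harvested on day 8. Each of the 4 single-color arrays held RNA pooled from 5 experiments, which gave 2 knockdown arrays and 2 control arrays. The arrays of a group differ in the siRNA used, so p values measure the spread between siRNAs and pools, and all 4 arrays lay on 1 slide, where array position and treatment cannot be told apart.

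TNF superfamily ligands are mostly made as membrane proteins that can be shed, and they act as trimers. Their receptors either recruit TRAF adaptors, which lead to the IkB kinases and to NF-kB, or carry a death domain that can also lead to caspases. In monocytes, NF-kB rests in the cytoplasm bound to IkB inhibitors, and once released it drives cytokine and chemokine genes as well as the genes of its own inhibitors.

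As a check of the knockdown, log2 intensity of MLLT3 (AF9), the 3′ partner of the fusion, was 6.82 with siRNA-A, 6.87 with siRNA-B and 7.59 and 7.61 with the controls, a difference of -0.76 ± 0.11 (SE, n = 2 against 2, limma adjusted p = 0.0640). The brightest MLL probe differed by -0.41 (limma adjusted p = 0.404), and 3 further MLL probes differed by -0.085 to 0.048. Median log2 intensity of the arrays ranged from 8.56 to 8.65, and 70.0% to 74.3% of spots were well above background. All 8 monocytic marker genes found, out of 10 listed, were well above background on all 4 arrays, 4 of them higher and 4 lower after knockdown with a median of 0.0098. Of these, 1 was called, CD14 at 1.05 (limma adjusted p = 0.0357), and this call was lost without control siRNA-2 (1.03). ITGAX differed by 0.62 (0.36 without siRNA-B), CSF1R by 0.19, ITGAM by 0.052, SPI1 by -0.033, CD33 by -0.11, CD68 by -0.15 and MPO by -0.22. Of the lymphoid markers, 7 of 8 were well above background on all arrays too, so detection on this platform did not separate cell types.

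At the level of the whole group, no TNF superfamily, TRAF or NF-kB gene passed the threshold. In bulk RNA, a change in the share of cells that express a gene and a change per cell cannot be told apart. An unadjusted limma p under 0.005 was reached by 0 of 50 genes, against 1.33% of all 17938 genes (0.63% higher and 0.702% lower). The lowest Benjamini-Hochberg adjusted p among the 50 genes was 0.478. At an unadjusted p under 0.05 there were 4 of 50 genes (8%), against 7.99% of all genes, a like share. All 4 were higher after knockdown, whereas of all genes 3.26% were higher and 4.74% lower at that threshold. With the single-spot criteria of the methods, 0 of 50 genes had a passing spot, against 1.84% of all genes. The 4 genes at an unadjusted p under 0.05 were the receptors TNFRSF21, TNFRSF14 and TNFRSF1B and the nuclear inhibitor NFKBIZ. That count of 4 rested on the arrays used, being 7 without siRNA-A (5 higher and 2 lower), 3 without siRNA-B (1 higher and 2 lower), 1 without control siRNA-1 (higher) and 0 without control siRNA-2. With the background-subtracted signal it was 1 (higher) scaled to the 75th percentile and 2 (1 higher and 1 lower) unscaled.

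Log2 fold changes, given throughout as knockdown minus control on the log2 intensity scale, ranged from -0.32 for TRAF7 to 0.39 for TNFRSF21, with 29 genes higher and 21 lower. With the background-subtracted signal scaled to its 75th percentile the range was wider, from -0.62 to 0.76, and its ends were the dim genes TNFRSF13B and TNFRSF11A. The median with the deposited intensity was 0.032, and the median of all genes was -0.021, with 43.8% of all genes higher. For the 42 genes well above background on all 4 arrays the median was 0.0047, with 22 higher and 20 lower. With the unscaled background-subtracted signal the median of the 50 genes was -0.0037, against -0.055 for all genes. With the deposited intensity, the median size of the change in the 50 genes was 0.10, and the 2 control arrays differed by a median of 0.11 in them. The knockdown values lay wholly outside those of the controls in 20 of 50 genes (40%), 12 higher and 8 lower, and the share among all genes was 36.2% (15% higher and 21.2% lower). Among receptors this held for 11 of 20 genes and among ligands for 1 of 11.

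**Figure D1:**
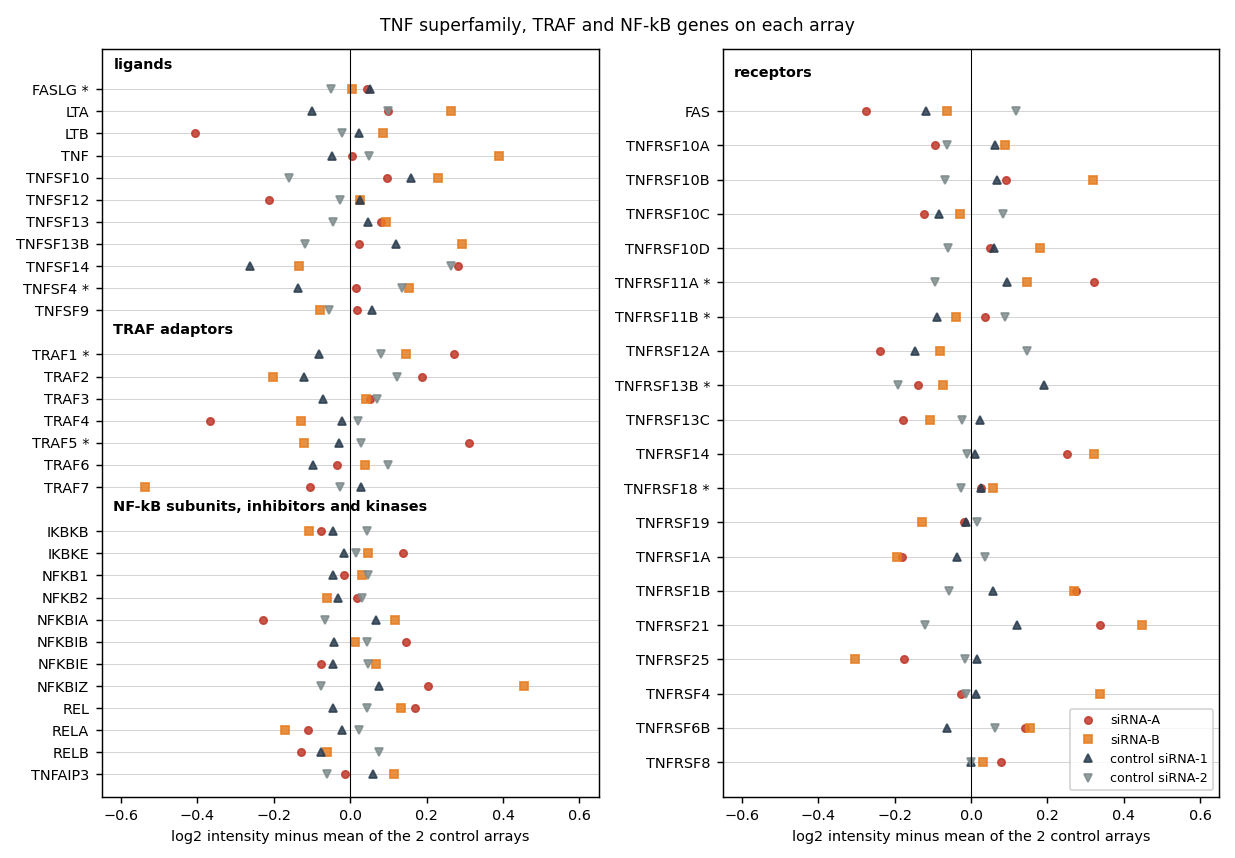
Log2 intensity of each of the 50 genes on each array minus the mean of its 2 control arrays (x axis), grouped by role. An asterisk marks genes that were not well above background on all 4 arrays. Knockdown points (circles and squares) and control points (triangles) overlap in 30 genes, and all points lie within 0.6 of the control mean.

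The precision of the arrays bounds what could have been missed. Standard errors ran from 0.11 to 0.19, and the 95% intervals of all 50 genes excluded a 2-fold change in either direction, as did 98.7% of intervals over all genes. The widest reach was from -0.66 (TRAF7) to 0.68 (TNFRSF21), and 47 of 50 intervals also excluded a 1.5-fold change. Median pixel intensities include background, which compresses the changes of dim genes. With the background-subtracted signal the 2-fold bound held for 45 of 50 genes and was lost for FASLG, TNFRSF11A, TNFRSF11B, TNFRSF13B and TRAF5. These 5 genes are among the 8 that were not well above background on every array, with TNFRSF18, TNFSF4 and TRAF1. For the 42 genes well above background on all 4 arrays, each of them stayed within 2-fold on both signals.

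**Figure D2:**
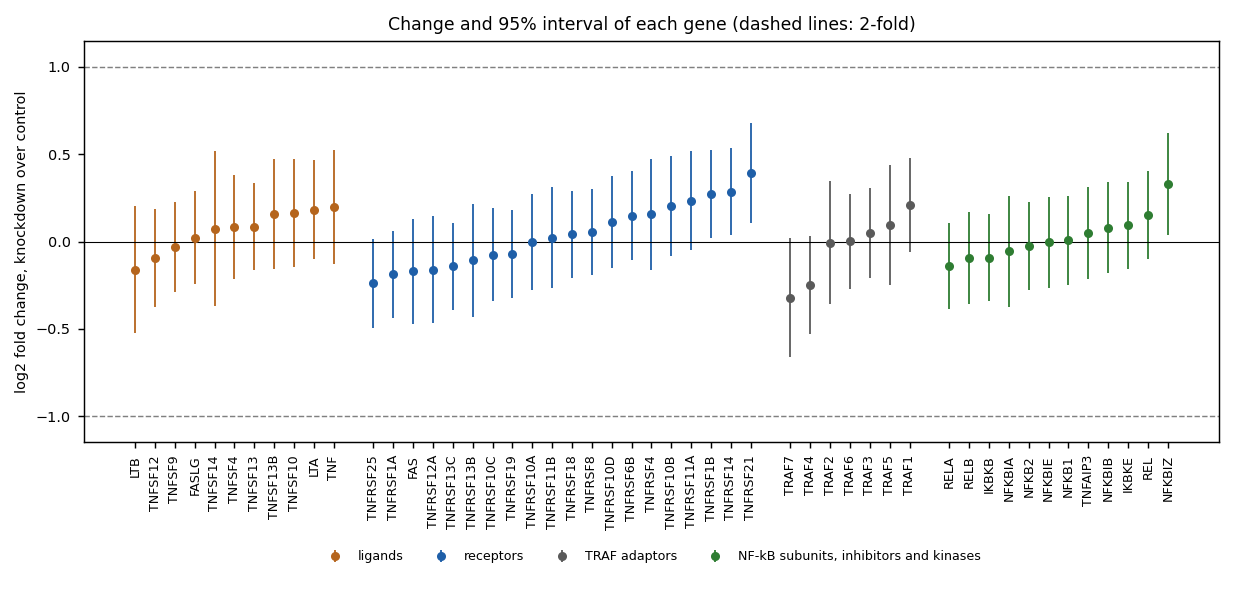
Log2 fold change, knockdown over control (y axis), of each gene with its 95% interval from limma (n = 2 against 2), colored by role. Dashed lines mark a 2-fold change, and all 50 intervals lie between them, while 4 intervals exclude 0.

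Among the ligands, TNF itself, the inflammatory cytokine that gives the family its name, was read at log2 intensities of 13.07 (siRNA-A), 13.45 (siRNA-B), 13.02 (control siRNA-1) and 13.11 (control siRNA-2). The siRNA-A array thus lay between the controls, the siRNA-B array above them, and the difference was 0.20 ± 0.14 (SE, limma adjusted p = 0.799, 95% interval -0.13 to 0.53). TNFSF13B, which encodes the B cell survival factor BAFF, was read at 13.07 and 13.34 in the knockdown arrays and at 13.17 and 12.93 in the controls. The groups overlapped here as well, with a difference of 0.16 (limma adjusted p = 0.830).

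LTA, lymphotoxin alpha, was at 5.75 and 5.92 after knockdown and at 5.55 and 5.75 in the controls. TNFSF9, the ligand of the costimulatory receptor TNFRSF9, was at 10.65 and 10.55 against 10.69 and 10.58. TNFSF10 encodes TRAIL, a ligand that can trigger apoptosis through death receptors, and it was at 9.77 and 9.90 against 9.83 and 9.51. None of these 3 ligands separated the groups, with differences of 0.18, -0.031 and 0.16 and limma adjusted p between 0.780 and 0.976. A second TNFSF10 probe, at 9.63 and 9.68 against 9.90 and 9.58, gave -0.085.

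The other ligands analysed were TNFSF13 (APRIL), TNFSF12 (TWEAK), TNFSF14 (LIGHT), TNFSF4 (OX40 ligand), LTB (lymphotoxin beta) and FASLG, with differences from -0.16 (LTB) to 0.086 (TNFSF13). TNFSF13 was the 1 ligand in which both knockdown arrays exceeded both controls, at 7.75 and 7.77 against 7.72 and 7.63. TNFSF14 had the widest gap between controls of all 50 genes, 0.53. TNFSF12 and TNFSF13 also share a read-through gene, so that signal of the fused transcript cannot be assigned to either gene. In the annotation 7 further genes of the group overlap another coding gene, NFKBIZ (NXPE3), TRAF1 (PHF19), TRAF7 (CASKIN1), FAS (ACTA2), TNFRSF10B (RHOBTB2), TNFRSF25 (ESPN) and TNFRSF6B (ARFRP1). TNFSF4 and FASLG were near background, each well above it on 0 of 2 knockdown arrays, and on 1 (TNFSF4) and 2 (FASLG) control arrays.

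Receptors held 3 of the 4 highest differences. TNFRSF21, also called death receptor 6, was read at 10.84 (siRNA-A), 10.95 (siRNA-B), 10.63 (control siRNA-1) and 10.38 (control siRNA-2). Both knockdown arrays were above both controls, and the difference was 0.39 ± 0.13 (SE, n = 2 against 2, limma adjusted p = 0.478). This corresponds to a 1.31-fold higher intensity, with a 95% interval of 0.11 to 0.68 on the log2 scale. The probe lies on chromosome 6, 47199483 to 47199542 (hg19, minus strand).

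TNFRSF1B encodes TNF receptor 2, the receptor without a death domain that is found mainly on blood cells. It was read at 9.22 and 9.21 after knockdown and at 9.003 and 8.89 in the controls. Both siRNAs gave nearly the same value, and the difference was 0.27 ± 0.11 (SE, limma adjusted p = 0.597). A second TNFRSF1B probe gave 0.22, with 6.88 and 7.12 against 6.87 and 6.70, again with both knockdown arrays above both controls (limma adjusted p = 0.746). The brighter probe lies on chromosome 1, 12268275 to 12268334 (hg19, plus strand).

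TNFRSF14 encodes HVEM, the receptor of LIGHT and of the lymphocyte inhibitor BTLA. Its brightest probe, on chromosome 1, 2495144 to 2495203 (hg19, plus strand), was read at 9.61 and 9.68 after knockdown and at 9.37 and 9.35 in the controls. The difference was 0.29 ± 0.11 (SE, limma adjusted p = 0.564). The second TNFRSF14 probe did not separate the groups, with 7.81 and 7.79 against 7.77 and 7.92 and a difference of -0.044 (limma adjusted p = 0.962).

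TNFRSF1A, TNF receptor 1, carries a death domain and is the other receptor of TNF. It was read at 11.04 and 11.03 after knockdown and at 11.19 and 11.26 in the controls. Here both knockdown arrays were below both controls, on the other side from TNFRSF1B, with a difference of -0.19 ± 0.11 (SE, limma adjusted p = 0.740, 95% interval -0.43 to 0.061). Its probe was printed on 10 spots, whose single differences ranged from -0.46 to -0.058, and 0 of the 10 passed an unadjusted limma p under 0.005. The contrast between TNFRSF1A and TNFRSF1B was not tested. Spots of 1 array share a sample, so they show measurement error and are no replicates.

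FAS, the receptor of the death ligand FASLG, was at 6.72 and 6.93 after knockdown and at 6.88 and 7.12 in the controls. The groups overlapped, and the difference was -0.17 (limma adjusted p = 0.812), with -0.26 and -0.14 for 2 further FAS probes. Of the TRAIL receptors, TNFRSF10B (death receptor 5) was higher on both knockdown arrays, at 10.64 and 10.87 against 10.62 and 10.48, a difference of 0.21 (limma adjusted p = 0.751). Its difference was 0.091 without siRNA-B. TNFRSF10A, the other death receptor for TRAIL, differed by -0.0015, and the decoy receptors TNFRSF10C and TNFRSF10D by -0.075 and 0.11, all 3 with overlapping groups.

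TNFRSF25, death receptor 3, had the lowest difference of the receptors, with intensities of 6.63 and 6.50 against 6.82 and 6.79 (-0.24, limma adjusted p = 0.659). TNFRSF12A, the receptor of TWEAK, differed by -0.16 (8.35 and 8.51 against 8.45 and 8.74, limma adjusted p = 0.825). TNFRSF4, known as OX40, was at 5.81 and 6.17 against 5.85 and 5.82, so its difference of 0.16 came from the siRNA-B array alone. The receptors of BAFF and APRIL, TNFRSF13B (TACI) and TNFRSF13C (BAFF receptor), differed by -0.11 and -0.14, and TNFRSF13C was lower on both knockdown arrays. The remaining receptors, TNFRSF6B, TNFRSF8, TNFRSF11A, TNFRSF11B, TNFRSF18 and TNFRSF19, differed by -0.073 to 0.23. Of these, TNFRSF11A (RANK) exceeded background clearly on 1 knockdown array and on 0 control arrays.

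**Figure D3:**
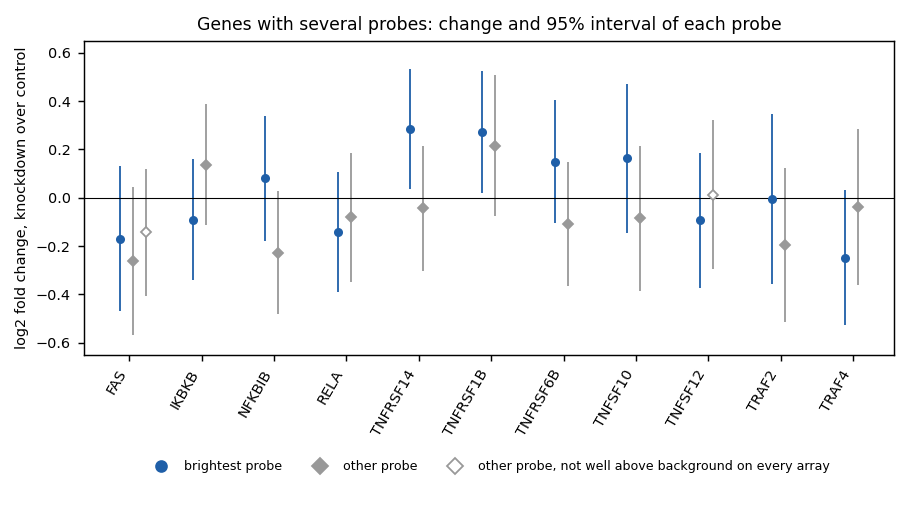
Log2 fold change with 95% interval of each probe of the 11 genes that had several probes. The brightest probe is in blue and the others in gray. The probes agree in sign in 5 genes and are opposite in 6.

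TRAF adaptors link the receptors to ubiquitin-dependent signaling. TRAF7, a ubiquitin ligase with WD40 repeats in place of the usual TRAF domain, had the lowest difference of all 50 genes. It was read at 11.28 (siRNA-A) and 10.85 (siRNA-B) against 11.41 and 11.36 in the controls, a difference of -0.32 ± 0.15 (SE, limma adjusted p = 0.657). Most of this came from the siRNA-B array, which lay 0.54 below the control mean, while the siRNA-A array lay 0.11 below it.

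TRAF4 was also below both controls on both knockdown arrays, at 7.86 and 8.10 against 8.21 and 8.25, a difference of -0.25 (limma adjusted p = 0.682). Its second probe gave -0.037 with overlapping groups. TRAF2, which binds both TNF receptors' complexes and recruits cellular IAP proteins, was at 13.08 and 12.69 against 12.77 and 13.01, so the siRNA-A and siRNA-B arrays enclosed the controls (difference -0.0069). A second TRAF2 probe was at 8.09 and 7.73 against 8.06 and 8.16, a difference of -0.20 (limma adjusted p = 0.794). TRAF6, the ubiquitin ligase used by Toll-like and interleukin-1 receptors, differed by 0.0016, and TRAF3, a brake on the noncanonical NF-kB pathway, by 0.047. TRAF1 and TRAF5 differed by 0.21 and 0.095, both near background.

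NF-kB subunits and inhibitors are partly controlled by NF-kB itself, and promoters of such feedback genes are known to bind it. The NF-kB consensus, of 10 letters and known as the kappaB site, was searched on both strands from 250 bases before to 50 bases after the start of each gene (RefSeq, GRCh38.p14). It matched in 10 of the 38 genes of the group with a promoter in the reference table (26.3%), against 6.53% of all protein-coding genes. A match is a description of the sequence and not evidence of binding. The 10 genes were LTB, TNFSF14, TNFRSF14, TNFRSF25, TRAF3, NFKB1, REL, NFKBIA, NFKBIZ and TNFAIP3.

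The stretch upstream of the start is shown for 7 of these genes, with the matches in capitals. Each stretch ends at the last base before the start and runs 5′ to 3′ on the gene's strand. The 120 bases before the start are given, and 250 for NFKBIZ, whose match lies further upstream. NFKB1 lies at chr4:102501239-102501358 (plus), REL at chr2:60881454-60881573 (plus), NFKBIA at chr14:35404750-35404869 (minus), NFKBIZ at chr3:101827740-101827989 (plus), TNFAIP3 at chr6:137867139-137867258 (plus), LTB at chr6:31582426-31582545 (minus) and TRAF3 at chr14:102777329-102777448 (plus).
NFKB1: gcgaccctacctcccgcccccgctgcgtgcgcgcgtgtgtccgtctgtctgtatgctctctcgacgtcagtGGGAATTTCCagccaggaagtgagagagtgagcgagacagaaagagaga
REL: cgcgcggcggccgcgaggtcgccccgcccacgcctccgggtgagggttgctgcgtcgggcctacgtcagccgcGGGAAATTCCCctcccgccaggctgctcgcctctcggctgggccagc
NFKBIA: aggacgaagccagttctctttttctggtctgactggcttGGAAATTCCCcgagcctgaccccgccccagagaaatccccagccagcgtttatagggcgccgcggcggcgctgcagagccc
NFKBIZ: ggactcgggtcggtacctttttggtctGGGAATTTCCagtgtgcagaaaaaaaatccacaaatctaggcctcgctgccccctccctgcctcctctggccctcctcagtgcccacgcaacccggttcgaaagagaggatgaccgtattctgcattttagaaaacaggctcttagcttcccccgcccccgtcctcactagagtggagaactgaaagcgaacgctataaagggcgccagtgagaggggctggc
TNFAIP3: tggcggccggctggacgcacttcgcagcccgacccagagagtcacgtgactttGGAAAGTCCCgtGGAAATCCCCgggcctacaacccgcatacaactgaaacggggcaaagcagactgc
LTB: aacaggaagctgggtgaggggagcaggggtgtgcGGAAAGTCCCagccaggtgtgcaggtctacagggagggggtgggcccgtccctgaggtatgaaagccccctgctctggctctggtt
TRAF3: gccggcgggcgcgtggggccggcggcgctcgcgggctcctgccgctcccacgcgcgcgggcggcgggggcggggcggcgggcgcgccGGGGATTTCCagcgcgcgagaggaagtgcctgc
NFKB1 and NFKBIZ share the same 10 bases, GGGAATTTCC, starting 49 and 223 bases before the start. NFKBIA carries GGAAATTCCC at 81 bases before it, and REL holds the same run overlapped by a second match 1 base upstream. TNFAIP3 has 2 matches, at 67 and 55 bases before the start, and the first, GGAAAGTCCC, is also that of LTB at 86 bases.

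Of the 10 genes with a match, 7 were higher and 3 lower after knockdown, with a median of 0.049 and a range of -0.24 to 0.33, and 0 were called. Of the 28 genes without a match, 18 were higher and 10 lower, and 0 were called. Their median was 0.067, with a range of -0.32 to 0.39. Among all genes, 1.33% were called and 43.8% were higher. At an unadjusted p under 0.05 there were 2 of the 10 genes with a match (TNFRSF14 and NFKBIZ) and 2 of the 28 without (TNFRSF21 and TNFRSF1B), and the difference was not tested.

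NFKBIA encodes IkB-alpha, an inhibitor that NF-kB rapidly induces, and was read at 12.93 (siRNA-A), 13.27 (siRNA-B), 13.22 (control siRNA-1) and 13.09 (control siRNA-2). The knockdown arrays enclosed the controls, and the difference was -0.055 ± 0.14 (SE, limma adjusted p = 0.960, 95% interval -0.37 to 0.26). TNFAIP3 encodes A20, a ubiquitin-editing enzyme that ends NF-kB signaling, and was at 9.25 and 9.38 against 9.32 and 9.20. Its difference was 0.051 (limma adjusted p = 0.951, 95% interval -0.21 to 0.31). Neither feedback inhibitor separated the groups.

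NFKB1, which encodes p105 and the subunit p50, was at 10.81 and 10.86 against 10.78 and 10.87. Its difference was 0.0077 with a 95% interval of -0.25 to 0.26. RELA, the p65 subunit, was lower on both knockdown arrays, at 10.06 and 10.00 against 10.14 and 10.19, a difference of -0.14 (limma adjusted p = 0.812). A second RELA probe gave -0.082 with overlapping groups. RELB, the subunit of the noncanonical pathway, was at 12.50 and 12.57 against 12.56 and 12.71, a difference of -0.094, and its partner NFKB2 differed by -0.023. REL differed by 0.15, with both knockdown arrays (9.33 and 9.29) above both controls (9.11 and 9.20).

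NFKBIZ was the 1 gene of the NF-kB branch at an unadjusted p under 0.05. It encodes IkB-zeta, an atypical nuclear inhibitor that also helps NF-kB to switch on a second wave of genes. The probe, on chromosome 3, 101578904 to 101578963 (hg19, plus strand), was read at 7.15 (siRNA-A) and 7.40 (siRNA-B) against 7.02 and 6.87. The difference was 0.33 ± 0.13 (SE, limma adjusted p = 0.580), and the siRNA-B array lay 0.45 and the siRNA-A array 0.20 above the control mean. NFKBIE and NFKBIB, further cytoplasmic inhibitors, differed by -0.0042 and 0.080, and the kinases IKBKB and IKBKE by -0.092 and 0.093. NFKBIB and IKBKB each had a second probe of opposite sign, -0.23 and 0.14.

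Of the superfamily members that carry other names, 0 of 7 were called, against 1.33% of all genes, and the groups did not overlap in 4 of 7, against 36.2%. They were CD70, CD27, EDA, EDA2R, CD40, LTBR and RELT. CD40, a receptor for T cell help, was read at 7.26 and 7.49 against 7.57 and 7.66, a difference of -0.24 (limma adjusted p = 0.698). Its difference was -0.12 without siRNA-A. RELT and LTBR were higher on both knockdown arrays, by 0.19 (limma adjusted p = 0.740) and 0.16 (limma adjusted p = 0.775). The proteases and partners that shed or cut the ligands, ADAM10, ADAM17, FURIN, RHBDF2, SPPL2A and SPPL2B, held 0 calls of 6, and non-overlapping groups in 2 of 6, with differences from -0.26 (SPPL2B) to 0.14 (RHBDF2).

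Of the further adaptors, kinases and ubiquitin enzymes of the pathway, 33 of 34 listed were analysed and 0 were called, against 1.33% of all genes. The 33 genes had a median of -0.028, and the groups did not overlap in 6 of 33, against 36.2% of all genes. At an unadjusted p under 0.05 there were 2 of 33, both higher, no larger a share than the 7.99% of all genes. MAP3K14, which encodes NIK, the kinase of the noncanonical pathway, was at 8.24 and 8.51 against 8.02 and 7.99, a difference of 0.37 (limma adjusted p = 0.519), or 0.23 without siRNA-B. MAP3K5, which encodes the stress kinase ASK1, was at 10.79 and 10.94 against 10.58 and 10.53, a difference of 0.31 (limma adjusted p = 0.545).

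Among the lists of pathway genes, calls were found in the known targets of NF-kB, 2 of 34 analysed (39 listed), both higher, against 1.33% of all genes. CCL2, the monocyte chemoattractant MCP-1, was read at 7.76 (siRNA-A) and 7.12 (siRNA-B) against 6.05 and 5.83, a difference of 1.502 ± 0.20 (SE, limma adjusted p = 0.0407). IL8, the neutrophil chemokine CXCL8, was read at 8.07 and 8.08 against 7.34 and 7.52, a difference of 0.65 ± 0.12 (SE, limma adjusted p = 0.149). For both genes the knockdown arrays lay clear of the controls. The call of CCL2 was lost without control siRNA-1 (difference 1.61, limma adjusted p = 0.945) and without control siRNA-2 (1.39, limma adjusted p = 1). It was also lost with the background-subtracted signal scaled to its 75th percentile (2.20, limma adjusted p = 0.556). The call of IL8 was lost without siRNA-A (0.65), siRNA-B (0.64) or control siRNA-1 (0.55), and with the background-subtracted signal unscaled (0.69, limma adjusted p = 0.513). The list held 0 calls without control siRNA-1 and 1 call without siRNA-A or without control siRNA-2.

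The other 32 genes of the list held 0 calls. At an unadjusted p under 0.05 there were 5 of 34 genes, against 7.99% of all genes. Beside CCL2 and IL8 they were SDC4 (0.37) and PLAU (0.32), higher, and PTX3 (-0.32), lower. SDC4, a cell surface proteoglycan, was at 7.96 and 8.11 against 7.69 and 7.64. PLAU, the urokinase protease, was at 12.88 and 13.11 against 12.69 and 12.66, and its difference was 0.20 without siRNA-B. PTX3, a secreted pattern recognition protein, was at 6.29 and 6.56 against 6.73 and 6.76, and its difference was -0.18 without siRNA-A. All 3 separated the groups. The median of the 34 genes was 0.054, with 22 higher and 12 lower. CXCL1 and CXCL2, chemokines related to IL8 whose promoters hold kappaB matches, differed by 0.16 and 0.083. The promoter window of IL8 held 0 exact matches, and that of CCL2 was not analysed here. Sites that depart from the consensus at any base were not counted, so 0 matches does not mean that a site is absent. IL1B (8.61 and 9.34 against 8.80 and 8.33) and CCL3 (13.54 and 14.48 against 13.76 and 13.40) were high on the siRNA-B array alone. CCL5 was at 11.28 and 11.83 against 11.95 and 11.92, a difference of -0.38 (limma adjusted p = 0.630), or -0.11 without siRNA-A. ICAM1 differed by 0.088.

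**Figure D4:**
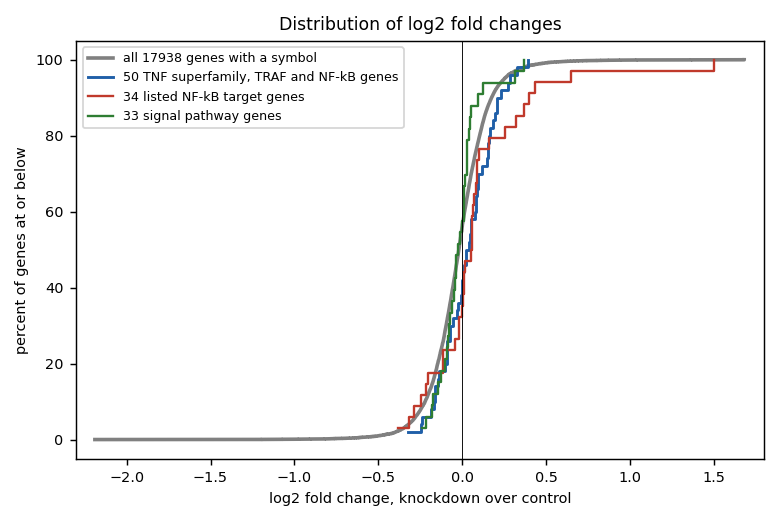
Cumulative percent of genes (y axis) at or below each log2 fold change, knockdown over control (x axis), for all 17938 genes with a symbol, the 50 genes of the group, 33 signal pathway genes and 34 NF-kB target genes. The 50 genes stay between -0.32 and 0.39, and of the 3 lists the target list reaches furthest, to 1.502 for CCL2.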

How the data were processed

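Gene expression was measured in THP1 cells on 4 single-color Agilent 4x44K arrays. Per the file headers, values had been extracted before deposit with Agilent Feature Extraction 10.5.1.1. The deposited intensity per spot was the same number as the median pixel signal for 100% of spots, and it was neither background corrected nor normalized. A deposited quality score (the spot weight) accompanied it, and how weights were set is not given in the sources used here. The scanner tables hold a background-subtracted signal too.

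Spots with a weight above 0 on all arrays (33323 of 43118) were averaged per probe, and 26219 probes were fitted on log2 intensity by limma 3.58.1 (R 4.3.3) using the spot weights and no covariates. Tests were two-sided. A gene, given by its brightest probe, was called at an unadjusted p under 0.005, the threshold of the methods, with Benjamini-Hochberg adjustment over all probes beside it. With 2 against 2 arrays an exact permutation test cannot go below 0.333. A spot was well above background by the scanner flag, a probe if a share of 0.5 or more of its spots was. Symbols are those of the array, and 47 of 50 accessions matched RefSeq.

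The genes and lists were chosen with earlier results of these data known. Genes named are those with a p under 0.05, the 3 brightest of each role, 8 central genes, and the 3 highest and 3 lowest of the rest among genes that exceeded background clearly on both arrays of 1 treatment or more. REL, TNFSF13 and other genes of the group outside this rule are given with their values too, so that each of the 50 is accounted for. LYZ, FCGR1A, CD22, EPCAM, NGFR, EDAR, CD40LG, VCAM1, SELE, CXCL3, CSF2 and TNIP3 of the listed genes were not analysed here. Epithelial (2 genes) and fibroblast (2 genes) markers held 0 calls, as did erythroid markers (3 genes). The number of arrays limits the precision.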

Additional observations from a re-analysis of the deposited data

How the results depend on the processing

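No TNF superfamily, TRAF or NF-kB gene was called in any alternative at the threshold of the methods, and 4 were at an unadjusted p under 0.05. That count was 0 to 7 with 1 array left out, and 1 and 2 with the background-subtracted signal scaled to its 75th percentile and unscaled. The split of higher and lower genes was 29 and 21, 32 and 18 after quantile normalization, and 24 and 26 with the unscaled signal, which put the median of all genes at -0.055. No paired analysis was made, because each array held a different siRNA and a pool of 5 experiments, and no label pairs the arrays.

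Of the 50 genes, 15 lay on opposite sides of the control mean with siRNA-A and siRNA-B, LTB, NFKB1, NFKB2, NFKBIA, NFKBIE, TNFAIP3, TNFRSF10A, TNFRSF11B, TNFRSF4, TNFSF12, TNFSF14, TNFSF9, TRAF2, TRAF5 and TRAF6. Alternatives were run singly for the 25 genes of the naming rule. Among these, NFKBIE was 0.038 with the scaled signal, 0.0071 unscaled, 0.049 after quantile and 0.047 after cyclic loess normalization and 0.027 after normexp correction. TRAF2 was 0.053, 0.044 and 0.051 in the last 3 of these. LTA was -0.0027 with the unscaled signal and TNFSF9 0.026 with the scaled one. A second probe gave -0.085 for TNFSF10 and -0.044 for TNFRSF14, and, outside the naming rule, turned the sign of IKBKB (0.14), NFKBIB (-0.23), TNFRSF6B (-0.11) and TNFSF12 (0.013). Leaving out 1 array in turn gave -0.038 to 0.054 for NFKB1, -0.23 to 0.12 for NFKBIA, -0.076 to 0.068 for NFKBIE, -0.013 to 0.12 for TNFAIP3, -0.20 to 0.19 for TRAF2, -0.097 to 0.10 for TRAF6, -0.087 to 0.025 for TNFSF9 and -0.025 to 0.34 for TNFRSF4. NF-kB target genes held 1 call with the background-subtracted signal, scaled or unscaled, 4 after normexp correction and 0 to 2 with 1 array left out. Signal pathway genes held 1 call after normexp correction. Of all genes, 0.836% were called with the scaled signal, 1.00% with the unscaled signal and 1.47% after normexp correction. The alternatives for these companion lists and for single spots were chosen after seeing the data. The causes were not tested. Without 1 array, the single remaining array of that treatment takes its spread from the other group. Intensity over background limits the 8 dim genes.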

Other observations

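In several of these genes the 2 siRNA arrays differed from each other by more than the knockdown mean differed from the control mean. A difference between single arrays varies more than a difference between means of 2 arrays. Over all genes, too, the siRNA arrays differed by a median of 0.14, and the median size of the knockdown difference was 0.099. LTB was at 8.20 with siRNA-A and 8.70 with siRNA-B, and TRAF5 at 5.95 and 5.52. TRAF2 was at 13.08 and 12.69, and NFKBIA at 12.93 and 13.27. In the 50 genes the siRNA arrays differed by a median of 0.13 and the control arrays by 0.11, against 0.14 and 0.11 over all genes. Each siRNA is 1 pool, so this difference has no replicate and was not tested.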
